A study of Mus musculus with 8 samples.

Results

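Transcript levels of 10 endothelial genes were compared by RNA-seq in whole perigonadal fat from 8 mice of strain C57BL/6. Of these mice 4 were wild type, and in the other 4 a gene had been knocked out specifically in adipocytes. The genes were taken by symbol (Pecam1, Cdh5, Kdr, Tek, Tie1, Emcn, Vwf, Esam, Cldn5 and Flt1), and all 10 were found among the 23212 genes of the count tables. All mice were killed at 20 weeks of age, after 12 weeks on a 45% fat diet that began at 8 weeks. The labels describe the mice as matched for age and weight, and the promoter that drove the deletion is not given in the sources used here. The deletion was aimed at adipocytes, so the endothelial cells themselves were not its labelled target.

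Endothelial cells line the blood vessels. In fat they supply oxygen, pass fatty acids to adipocytes, gate the entry of immune cells and grow with the tissue as it expands. Their growth and survival depend on vascular endothelial growth factors, which bind the receptors encoded by Kdr and Flt1, and on angiopoietins, which bind the receptor encoded by Tek. Their barrier is held by adherens junctions, built on VE-cadherin, and by tight junctions, built on claudin-5.

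Each library held 46444435 to 51431956 counts, and every member had at least 1279 counts in every library. Counting error at the lowest count was therefore 2.80% at most, and differences between mice set the precision. No member shared exonic bases with another gene, and all 10 passed the low-count filter, none being below 26.2 CPM in any library. Levels are given as CPM, the depth-normalised count with library sizes scaled by TMM. Wild-type library 3 and knockout library 2 stood apart from the others by epithelial and ciliated-cell genes, such as Epcam, which measured 5.79 and 19.6 CPM there and 0.491 CPM or less elsewhere. The labels' library identifiers run in separate blocks for the genotypes, and an order of preparation, if that is what they stand for, cannot be told apart from genotype.

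The sequences upstream of 5 members are shown because most members moved together across libraries, and because the receptor pairs Tek with Tie1 and Kdr with Flt1 are relatives whose upstream regions can be set side by side. RefSeq (GRCm38.p6) gave an upstream sequence for 6 of the 10 members. Each line holds the 250 bases before the start site, 5′ to 3′ on the strand of the gene. Capitals mark AGGAA or its reverse complement TTCCT, a form of the core bound by ETS-family factors such as ERG and FLI1. Other forms of that core were not searched and are not marked.
Tek (chr4:94739039-94739288, plus strand): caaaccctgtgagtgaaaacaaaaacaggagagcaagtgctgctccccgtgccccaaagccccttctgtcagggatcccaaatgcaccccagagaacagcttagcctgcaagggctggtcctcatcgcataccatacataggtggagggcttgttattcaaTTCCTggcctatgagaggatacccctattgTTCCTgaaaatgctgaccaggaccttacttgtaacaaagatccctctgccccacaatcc
Tie1 (chr4:118489850-118490099, minus strand): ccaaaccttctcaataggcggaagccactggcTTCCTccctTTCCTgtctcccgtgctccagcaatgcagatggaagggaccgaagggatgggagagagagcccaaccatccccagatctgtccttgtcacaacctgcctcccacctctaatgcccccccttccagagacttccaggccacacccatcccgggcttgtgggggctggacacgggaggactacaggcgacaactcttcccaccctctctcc
Kdr (chr5:75978456-75978705, minus strand): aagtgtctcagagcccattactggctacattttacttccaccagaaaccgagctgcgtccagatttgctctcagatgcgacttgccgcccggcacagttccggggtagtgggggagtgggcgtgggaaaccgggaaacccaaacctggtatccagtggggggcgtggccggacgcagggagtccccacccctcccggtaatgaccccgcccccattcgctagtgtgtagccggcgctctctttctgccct
Flt1 (chr5:147726012-147726261, minus strand): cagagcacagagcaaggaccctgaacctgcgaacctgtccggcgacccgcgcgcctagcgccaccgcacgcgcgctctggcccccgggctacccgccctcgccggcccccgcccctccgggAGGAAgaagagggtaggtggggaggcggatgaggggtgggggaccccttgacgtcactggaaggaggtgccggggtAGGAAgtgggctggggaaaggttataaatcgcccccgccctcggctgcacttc
Emcn (chr3:137340828-137341077, plus strand): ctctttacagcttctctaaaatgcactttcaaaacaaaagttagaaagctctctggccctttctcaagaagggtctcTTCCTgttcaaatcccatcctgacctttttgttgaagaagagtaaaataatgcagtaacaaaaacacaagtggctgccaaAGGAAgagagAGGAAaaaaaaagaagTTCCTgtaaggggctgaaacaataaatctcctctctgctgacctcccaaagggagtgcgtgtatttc
AGGAA was found 4 times upstream of Emcn and 2 times each upstream of Tek, Tie1 and Flt1. It was not found in these windows of Kdr and Cldn5, which does not show that every form of the core is absent there. Of 32851 upstream windows of the same length, 60.3% held at least 1 match, 26.0% at least 2 and 2.72% at least 4. The window of Flt1 was the richest in G and C (70.4%), and that of Emcn the poorest (40.8%). Kdr (61.6%), Tie1 (60.4%) and Cldn5 (59.6%) were close to one another, and Tek was at 51.2%. The cores GATAA (GATA factors) and ACAAT (SOX factors) and the box TATAAA were searched as well, on both strands. GATAA was found in none of the 6 windows (22.6% of all windows held it), ACAAT 2 times in Tek, of which 1 overlapped an AGGAA match, and 1 time in Emcn (27.7%), and TATAAA 1 time in Flt1 (12.4%). A match is a string of letters and was not tested as a binding site.

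In the mm10 annotation deposited with the counts, whole gene spans were as follows, and coding and untranslated exons were not separated. The receptor genes Kdr and Flt1 lie on 1 chromosome (chromosome 5, 75933270 to 75978428, minus strand, and chromosome 5, 147562196 to 147725988, minus strand), as do Tek and Tie1 (chromosome 4, 94739300 to 94874939, plus strand, and chromosome 4, 118471191 to 118489849, minus strand). The junction genes are spread over the genome: Pecam1 (chromosome 11, 106654218 to 106715281, minus strand), Cdh5 (chromosome 8, 104101625 to 104144502, plus strand), Esam (chromosome 9, 37528089 to 37538319, plus strand) and Cldn5 (chromosome 16, 18776847 to 18778262, plus strand). Emcn (chromosome 3, 137341078 to 137431069, plus strand) and Vwf (chromosome 6, 125552963 to 125686677, plus strand) complete the list, Vwf having the longest exonic sequence at 8817 bases and Cldn5 the shortest at 1416.

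Per kilobase of exon, the members formed 4 tiers, drawn after the levels were seen, that did not overlap in any of the 8 libraries. Cldn5, encoding the tight-junction protein claudin-5, was the most abundant at 105 ± 20.5 CPM per kilobase in wild type and 111 ± 23.2 in knockout (SD, n = 4 each). Esam, Pecam1 and Cdh5 followed, with means over the 8 libraries of 67.2, 65.9 and 62.0 CPM per kilobase. Their order was not stable, Esam being above Pecam1 in 3 of 8 libraries and Pecam1 above Cdh5 in 6 of 8. Tie1, Kdr and Emcn came next at 22.9, 21.9 and 21.8 CPM per kilobase. Tek, Vwf and Flt1 were lowest, at 9.40, 9.02 and 8.80 CPM per kilobase, and again could not be ordered among themselves.

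**Figure D1:**
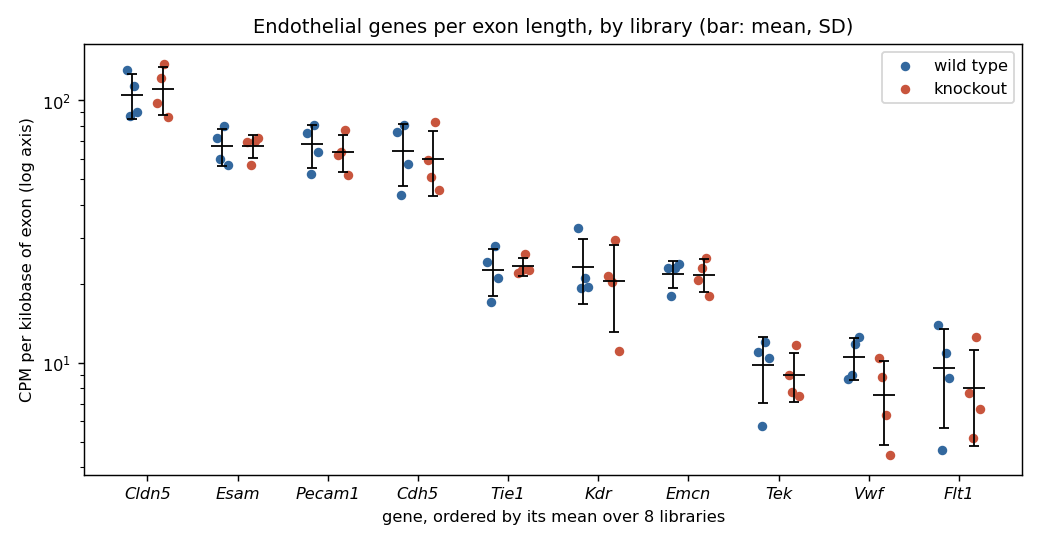
CPM per kilobase of exon (log axis) of the 10 endothelial genes in each library, wild type in blue and knockout in red, with mean and SD (n = 4 each). The genes form tiers led by Cldn5, and within each gene the points of the genotypes overlap.

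None of the 10 genes differed between genotypes past the threshold. At an adjusted p of 0.05 over 14493 genes, edgeR's quasi-likelihood test called 0 of 10 members, beside 0.0138% of all genes. At an unadjusted p under 0.05 it also found 0 of 10, beside 2.23% of all genes, and DESeq2 and limma voom called 0 as well. Wild-type and knockout libraries overlapped for every member, where 1.44% of all tested genes had groups that did not overlap. The log2 fold change was below 0 for 8 members and above 0 for 2, with a median of -0.10, beside a median of 0.011 over all tested genes. That tally depended on the libraries: it was 0 above and 10 below without wild-type library 2 or without knockout library 3, and 6 above and 4 below when wild-type library 3 and knockout library 2 were both left out. With total-count scaling it was 4 above and 6 below. In whole tissue, fewer endothelial cells and less RNA per endothelial cell cannot be told apart.

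**Figure D2:**
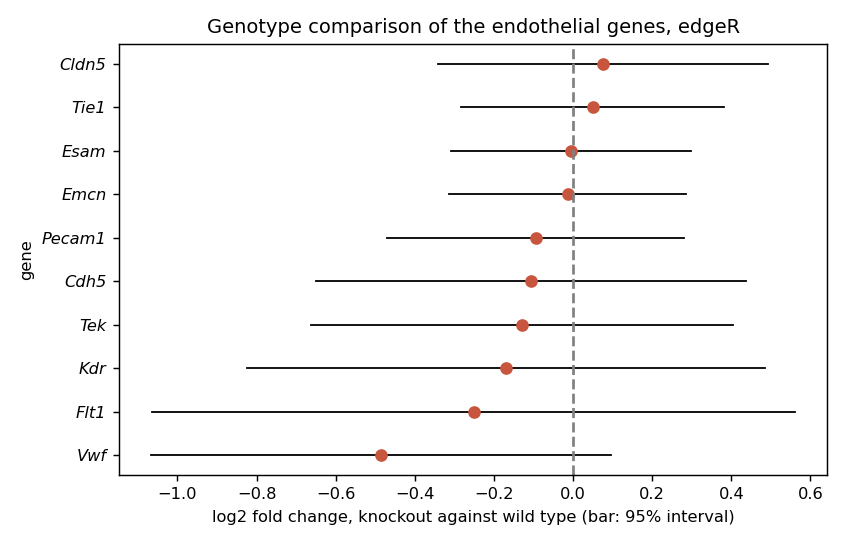
Log2 fold change of each gene, knockout against wild type, in edgeR, with its 95% interval (n = 4 each). All 10 intervals include 0; with total-count scaling, Emcn and Esam lay above 0 instead of below.

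Of the receptors for vascular endothelial growth factors, Kdr encodes VEGFR2, the main signalling receptor. Kdr measured 178, 105, 115 and 106 CPM in wild-type mice 1 to 4, against 117, 111, 160 and 60.7 CPM in knockout mice 1 to 4. Values of every gene below follow the same order. Wild-type library 1 and knockout library 3 were high, knockout library 4 was low, and the groups overlapped. The log2 fold change was -0.17 (standard error, SE, 0.29; edgeR adjusted p = 1), with a 95% interval from 0.565-fold to 1.40-fold. Flt1 encodes VEGFR1, which binds the same ligand and also exists in a soluble form that holds it back; the deposited annotation has 1 Flt1 transcript, so the forms were not separated. Flt1 was at 87.6, 29.1, 68.5 and 55.1 CPM in the wild-type mice, against 48.4, 32.4, 79.0 and 42.1 CPM in the knockouts. It spanned 3.01-fold between its lowest library, wild type 2, and its highest, wild type 1, and all 4 knockout libraries lay inside the wild-type range. Its log2 fold change was -0.25 (SE 0.36), with an interval from 0.478-fold to 1.48-fold.

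Tek encodes TIE2, the angiopoietin receptor, and Tie1 its relative, which modulates TIE2 signalling. Tek was at 51.4, 26.8, 55.9 and 48.7 CPM in the wild-type mice, against 42.0, 36.2, 54.3 and 34.8 CPM in the knockouts. Wild-type library 2 was the lowest, and all 4 knockout libraries fell inside the wild-type range. Tie1 was at 94.0, 66.3, 108 and 81.4 CPM in the wild-type mice, against 85.5, 87.9, 101 and 87.7 CPM in the knockouts, again all inside the wild-type range. The log2 fold changes were -0.13 (SE 0.24) for Tek and 0.05 (SE 0.15) for Tie1.

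Among junction and adhesion genes, Pecam1 encodes CD31, a homophilic adhesion molecule of endothelium that platelets and some leukocytes also carry. Pecam1 was at 249, 173, 266 and 211 CPM in the wild-type mice, against 205, 210, 255 and 173 CPM in the knockouts. Cdh5 encodes VE-cadherin and was at 302, 174, 321 and 229 CPM in the wild-type mice, against 237, 204, 330 and 182 CPM in the knockouts. For both genes wild-type libraries 1 and 3 and knockout library 3 were high, and wild-type library 2 and knockout library 4 were low. The log2 fold changes were -0.09 (SE 0.17) for Pecam1 and -0.11 (SE 0.24) for Cdh5.

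Cldn5 was found at 184, 123, 161 and 128 CPM in the wild-type mice, against 138, 172, 196 and 123 CPM in the knockouts, with a log2 fold change of 0.08 (SE 0.18). Its highest libraries were knockout library 3 and wild-type library 1. Esam, an immunoglobulin-family adhesion molecule of endothelial tight junctions that platelets also carry, was at 134, 111, 148 and 106 CPM in the wild-type mice, against 128, 105, 130 and 133 CPM in the knockouts. Esam spanned only 1.41-fold from lowest to highest, and knockout library 4, low for most members, was its highest knockout library. Its log2 fold change was -0.0041 (SE 0.13), with an interval from 0.808-fold to 1.23-fold. Emcn encodes endomucin, a sialomucin of capillary and venous endothelium that limits leukocyte adhesion. Emcn was at 33.5, 26.3, 33.5 and 34.7 CPM in the wild-type mice, against 30.4, 33.7, 36.6 and 26.2 CPM in the knockouts, with an interval from 0.805-fold to 1.22-fold around a log2 fold change of -0.01 (SE 0.13).

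Vwf encodes von Willebrand factor, the clotting glycoprotein that endothelial cells store in Weibel-Palade bodies and that megakaryocytes also make. Vwf was at 76.6, 79.7, 104 and 111 CPM in the wild-type mice, against 92.1, 77.9, 56.0 and 39.3 CPM in the knockouts. Knockout libraries 3 and 4 lay below every wild-type library, while knockout libraries 1 and 2 lay within the wild-type range. The log2 fold change of -0.48 (SE 0.26) was the farthest from 0 among the 10 members and did not pass in edgeR (unadjusted p = 0.0914, adjusted p = 1). Its 95% interval ran from 0.478-fold to 1.07-fold. Megakaryocyte and platelet genes other than Vwf summed to 15.2 to 48.1 CPM in wild type and, in knockout, to 24.8 to 42.4 CPM over 9 genes, of which Gp1bb was at 0 in every library. The largest part of the sum in every library was Pf4, at 8.75 to 39.9 CPM in wild type and 20.1 to 34.7 CPM in knockout. The part of these genes in the level of Vwf was not tested.

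For the summed level, the spread between mice of 1 genotype was larger than the difference between genotypes. The summed level of the 10 genes was 1390, 914, 1382 and 1110 CPM in wild-type libraries 1 to 4, and 1124, 1069, 1398 and 901 CPM in knockout libraries 1 to 4. The group means were 1199 ± 230 and 1123 ± 206 CPM (SD, n = 4 each). Relative to its own mean over the 8 libraries on the log2 scale, every member was above in wild-type libraries 1 and 3, and 9 of 10 were above in knockout library 3. In wild-type library 2 and in knockout library 4, 9 of 10 were below. The exceptions were Vwf in knockout library 3, at -0.44, and in wild-type library 2, at 0.07, and Esam in knockout library 4, at 0.11. Each genotype thus held libraries that were high and libraries that were low for nearly all members.

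**Figure D3:**
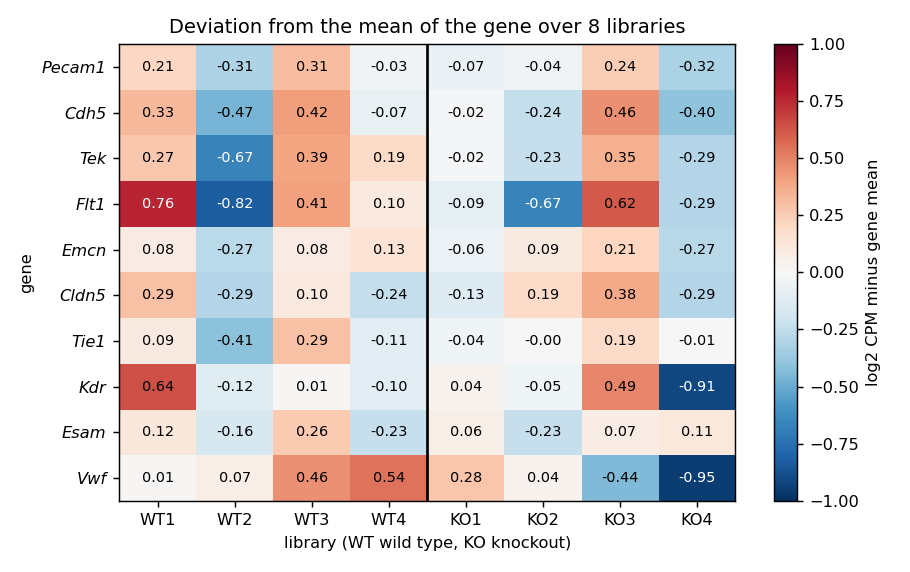
Log2 CPM of each endothelial gene in each library minus its mean over the 8 libraries, red above and blue below, with genes ordered by their correlation with the other 9. Wild-type libraries 1 and 3 and knockout library 3 are mostly red and wild-type library 2 and knockout library 4 mostly blue, while Vwf in the bottom line follows another order.

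The members did not follow this shared pattern equally closely. Pearson's r of a member's log2 CPM with the mean of the other 9, over 8 libraries and given as a description, was 0.98 for Pecam1, 0.97 for Cdh5 and 0.91 for Tek. It was 0.83 for Flt1, 0.82 for Emcn, 0.73 for Cldn5 and for Tie1, and 0.72 for Kdr. Esam was at 0.42 and Vwf at 0.20. Without the pair of libraries that held epithelial genes, over 6 libraries, Pecam1 was at 0.99, Esam at 0.25 and Vwf at 0.09. The libraries share a tissue mixture and a scaling, so these values rest on few and related points.

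The spread also differed between members. Within a genotype the coefficient of variation was 40.4% for Flt1, 32.4% for Kdr, 28.2% for Vwf and 27.0% for Cdh5. It was 13.2% for Emcn, 13.4% for Esam and 15.4% for Tie1. Over the 12909 tested genes at a mean of 1 CPM or more, the median was 15.6%, and 3 of the 10 members lay below it. In knockout, Tie1 varied by 7.76% and Flt1 by 39.9%.

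Outside the list, the genes whose log2 CPM followed the mean of the members most closely, among 12018 named genes at 1 CPM or more over 8 libraries, were Gfod1 (r = 0.98), Cdh13 (r = 0.97), Zfp366 (r = 0.97), Myst4 (r = 0.96) and Sdk2 (r = 0.96). Cdh13 encodes T-cadherin, a receptor for adiponectin on endothelial cells. Cdh13 was at 43.7, 18.6, 41.5 and 35.3 CPM in the wild-type mice, against 25.6, 27.5, 43.8 and 20.3 CPM in the knockouts. It was lowest in wild-type library 2 and knockout library 4, the same libraries in which most members were low. That likeness follows from its choice by r over these libraries.

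Other endothelial genes were looked up in 9 lists. They held 103 genes beyond the members, of which 97 were tested, and edgeR, DESeq2 and limma voom each called 0 of them between genotypes. Their log2 fold changes were above 0 for 36 and below 0 for 61, with a median of -0.05, where 46.9% of all tested genes were below 0. Some genes stand in more than 1 list. Of the 97 tested, 1 gene had an unadjusted p under 0.05 in edgeR, where 2.23% of all tested genes did. That gene was Thbd, which encodes thrombomodulin, the cofactor by which endothelium turns thrombin towards anticoagulation. Thbd was at 297, 242, 214 and 305 CPM in the wild-type mice, against 183, 153, 218 and 156 CPM in the knockouts. The groups overlapped only in that knockout library 3 lay just above wild-type library 3. The log2 fold change was -0.58 (SE 0.16, unadjusted p = 0.00596, edgeR adjusted p = 1).

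The 23 other pan-endothelial genes followed the members across libraries with a median r of 0.77, and 21 of them had an r above 0, against a median of -0.02 over all 12018 genes. Capillary genes, some of which adipocytes also express (Cd36, Fabp4 and Aqp7), had a median r of 0.79, arterial genes 0.64 and endothelial transcription factors 0.66. Venous genes had a median r of 0.19 and lymphatic genes 0.17. These are descriptions of 8 libraries. Adipocyte markers followed the members less closely over 8 libraries, with a median r of 0.28 and 9 of 12 above 0. Without wild-type library 3 and knockout library 2, their median r over 6 libraries was 0.73. That of the pan-endothelial genes was 0.76 there. Leaving out this pair was added for r after the data were examined. Whether the shared pattern is particular to endothelial genes was not tested. Erg, an ETS-family factor that maintains endothelial identity, was at 35.9, 17.5, 25.6 and 25.2 CPM in the wild-type mice, against 21.0, 19.7, 29.4 and 14.6 CPM in the knockouts. Ptprb, encoding the phosphatase VE-PTP that restrains TIE2, was at 297, 122, 261 and 228 CPM in the wild-type mice, against 205, 132, 289 and 135 CPM in the knockouts. Both genes were lower in wild-type library 2 and knockout library 4 than in wild-type library 1 and knockout library 3. Among the knockouts Erg was lowest in library 4, but Ptprb in library 2. The sum of the other pan-endothelial genes was also lowest in knockout library 2, at 1356 CPM against 1414 CPM in library 4. So were the sums of receptors, transcription factors and arterial genes, while that of other junction genes was lowest in knockout library 4.

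The endothelial lists did not all lean the same way between genotypes. Capillary genes had 7 above 0 and 5 below (median log2 fold change 0.010), pan-endothelial genes 10 and 13 (-0.0020), transcription factors 9 and 10 (-0.00051), receptors 5 and 6 (-0.015) and lymphatic genes 3 and 4 (-0.015). The receptor list also held receptors of other ligands, such as Aplnr and S1pr1. Lower medians were found for haemostasis genes, with 1 above and 9 below (-0.14), and for arterial genes, with 3 above and 9 below (-0.15). Sema3g, a semaphorin of arterial endothelium, averaged 46.3 ± 17.5 CPM in wild type against 33.9 ± 14.5 CPM in the knockouts (SD, n = 4 each). Gja5, the gene of an arterial connexin, averaged 13.9 ± 4.27 against 10.8 ± 3.19 CPM. Of 8 tested venous genes 2 lay above 0 and 6 below (median -0.15), with the adhesion receptor P-selectin, Selp, at 9.07 ± 1.61 and 7.39 ± 2.02 CPM. Of 13 other junction genes 2 lay above 0 and 11 below (median -0.12), among them Jam3, a junctional adhesion molecule, at 14.6 ± 2.26 against 11.8 ± 1.16 CPM (log2 fold change of -0.31, SE 0.14, unadjusted p = 0.051 in edgeR). On the other side, Egfl7, a matrix protein secreted by endothelium, averaged 107 ± 7.52 against 123 ± 8.35 CPM (log2 fold change of 0.20, SE 0.09, unadjusted p = 0.053 in edgeR). Each of these genes had an adjusted p of 1. Prox1, which encodes the defining transcription factor of lymphatic endothelium and was chosen after its values were seen, was at 0.782 CPM or less in every library and was not tested.

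The listed ligands did not differ between genotypes past the threshold either. Of these 13 genes, 6 lay above 0 and 7 below, with a median of -0.06 and 0 called in edgeR. Among them Angptl4, Apln, Adm, Sema3a and Sema3c are neither vascular endothelial growth factors nor angiopoietins. Vegfa, the main ligand of Kdr and Flt1, was named after its values were seen. Vegfa was at 257, 167, 194 and 202 CPM in the wild-type mice, against 233, 153, 404 and 152 CPM in the knockouts, highest in knockout library 3 and lowest in knockout library 4. Figf, encoding VEGF-D, was at 26.2, 46.6, 51.9 and 45.4 CPM in the wild-type mice, against 37.2, 40.6, 17.3 and 25.7 CPM in the knockouts (SE 0.29 around a log2 fold change of -0.49). The angiopoietin gene Angpt4 was low, at a mean of 1.15 ± 1.08 and 0.548 ± 0.694 CPM.

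Levels of other cell types' genes also differed between libraries. Erythroid genes, whose level came mostly from the haemoglobin gene Beta-s while 4 of 9 matched symbols (Hba-a1, Hba-a2, Hbb-b1 and Hbb-b2) were at 0 in every library, summed to 485 to 1217 CPM in wild type and, in knockout, to 376 to 848 CPM. Their highest values were in library 2 among the wild types and in library 4 among the knockouts. In these libraries the sum of the 10 endothelial genes was lowest. In wild-type library 4 the erythroid sum was nearly as high, at 1156 CPM. Macrophage genes, 11 in all and none at 0, summed to 445 to 1373 CPM in wild type and, in knockout, to 588 to 2432 CPM, highest in knockout library 4. Smooth muscle and pericyte genes, 12 in all and none at 0, summed to 546 to 1056 CPM in wild type and, in knockout, to 474 to 609 CPM, highest in wild-type library 2. That maximum rested on Acta2, smooth muscle actin, at 605 CPM in wild-type library 2. Without Acta2, a sum formed after the values were seen, the wild-type libraries were at 363, 450, 681 and 574 CPM and the knockout libraries at 342, 455, 502 and 410 CPM, with wild-type library 3 highest. Notch3, a receptor of pericytes and smooth muscle, measured 24.0, 11.6, 51.1 and 35.2 CPM in the wild types and 14.1, 22.3, 51.9 and 28.6 CPM in the knockouts, so that wild-type library 2 was its lowest, as for 4 of the endothelial members. Rgs5, Abcc9, Kcnj8 and Pdgfrb were likewise lowest among the wild types in library 2. By contrast Cspg4 and Des, like Acta2, were highest there among the wild types. Tagln, Myh11, Cnn1 and Mylk were lowest among the wild types in library 1. The median r of the 12 genes with the members was 0.07. Adipocyte genes, 12 in all and none at 0, summed to 44785 to 60328 CPM in wild type and, in knockout, to 47088 to 64007 CPM. Their maxima were in wild-type library 1 and knockout library 3, which also had the highest endothelial sum of each genotype. Wild-type library 4 was nearly as high, at 60015 CPM. Wild-type library 3, with an endothelial sum of 1382 CPM, had the lowest adipocyte sum. Mesothelial genes, 8 in all and none at 0, summed to 231 to 1196 and 144 to 1061 CPM. Progenitor and fibroblast genes, 10 in all and none at 0, summed to 2161 to 3397 and 2011 to 4800 CPM. Epithelial and ciliated-cell genes, 10 in all of which Cdh1, Dnahc5 and Cldn4 were at 0 in some libraries, summed to 5.38 to 52.2 CPM in wild type, highest in library 3, and to 3.41 to 151 CPM in knockout, highest in library 2. Between genotypes edgeR called 0 genes of each of these lists, beside 0.0138% of all tested genes. At an unadjusted p under 0.05 it found 2 of 12 smooth muscle and pericyte genes, Mylk and Acta2, beside 2.23% of all tested genes. It also found 1 of 5 tested erythroid genes, Alas2, and 0 genes of the other lists. The groups of Acta2 did not overlap (150 to 605 CPM in wild type, 107 to 135 CPM in knockout). Over all tested genes the share without overlap was 1.44%. In edgeR 11 of 11 macrophage genes were above 0 and 5 of 5 tested erythroid genes below, with median log2 fold changes of 0.64 and -0.84. The part of these cells in the endothelial pattern was not tested.

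**Figure D4:**
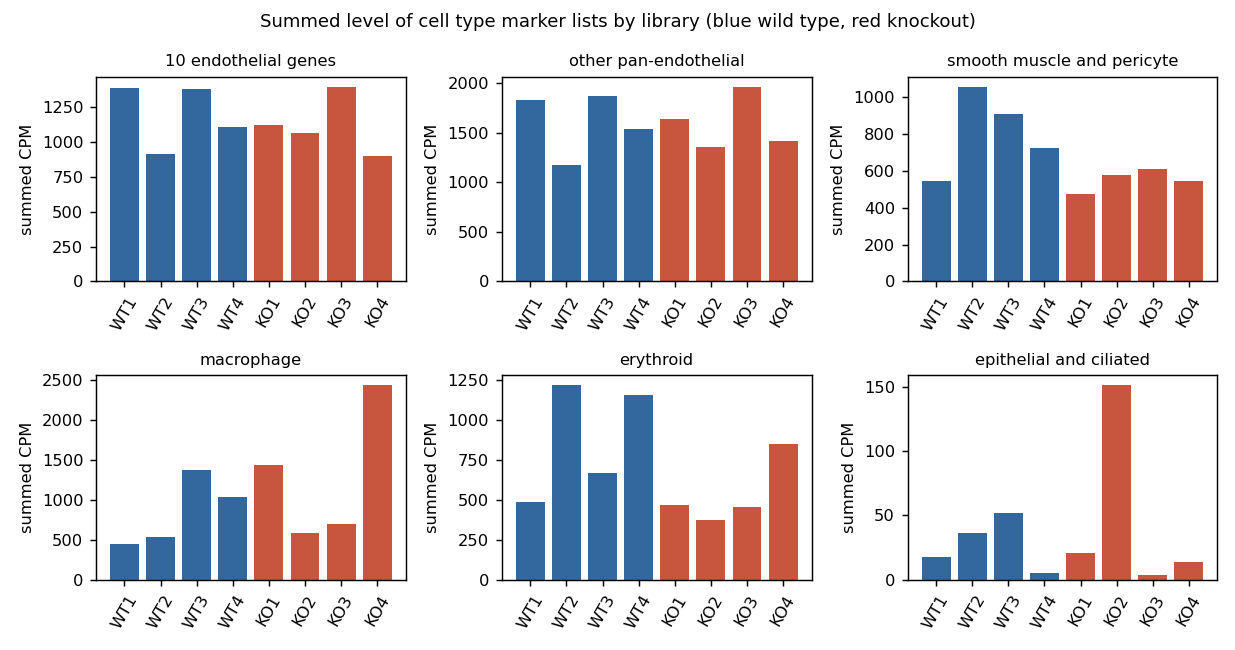
Summed CPM per library of the 10 endothelial genes and of 5 marker lists, wild type in blue and knockout in red, each panel with its own axis from 0. The sums of the 10 endothelial genes are lowest in wild-type library 2 and knockout library 4, at 914 and 901 CPM. Those of the other pan-endothelial genes are lowest in library 2 of each genotype.

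Ratios between members were compared because a ratio does not depend on the scaling of the libraries. For 5 ratios, a two-sided exact permutation test over 4 against 4 libraries was used, whose smallest p is 0.0286. The log2 ratio of Vwf to Pecam1 was -1.70, -1.12, -1.35 and -0.93 in wild type and -1.16, -1.43, -2.19 and -2.14 in knockout. Its difference between genotypes of -0.45 did not pass (exact permutation p = 0.2, adjusted over the 5 ratios 0.607). The SD between mice was 0.33 in wild type and 0.51 in knockout, and knockout libraries 3 and 4 lay below all others. The ratio of Tek to Tie1 differed by -0.17 (exact permutation p = 0.314), and that of Cldn5 to Cdh5 by 0.17 (exact permutation p = 0.371). The ratio of Emcn to Pecam1 was the steadiest, at -2.80 ± 0.17 in wild type and -2.73 ± 0.068 in knockout (SD, n = 4 each; exact permutation p = 0.486).

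The ratio of Kdr to Flt1, the receptors for the same growth factor, had a mean of 1.14 in wild type and 1.15 in knockout on the log2 scale, a difference of 0.0064 (exact permutation p = 1). Between mice it ranged more widely, from 0.75 to 1.85 in wild type and from 0.53 to 1.77 in knockout. It was highest in wild-type library 2 and knockout library 2, where Flt1 was lowest in each genotype, and lowest in knockout library 4, where Kdr was at its minimum. With wild-type library 3 and knockout library 2 both left out, the genotype difference turned to -0.33 for Kdr to Flt1, to -0.021 for Emcn to Pecam1 and to -0.016 for Cldn5 to Cdh5.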

How the data were processed

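The authors deposited 1 table per mouse of raw counts by gene symbol; the numbers are whole and carry no normalization. FastQC 0.11.2, STAR 2.4.0g1, featureCounts, Cufflinks, edgeR and mm10 appear in the submitters' processing notes; which did what, and the strand setting, is not given in the sources used here. Lengths and positions came from the merged annotation that the authors also deposited.

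In R 4.3.3, edgeR 4.0.16 kept 14493 genes (filterByExpr), scaled them by TMM and compared the genotypes by the robust quasi-likelihood test without covariates, with Benjamini-Hochberg adjustment over all tested genes. The SE is the one implied by the F statistic. Replicates are separate mice per the labels; no libraries of a genotype agreed within sampling noise. The procedure was tested on simulated data. DESeq2 1.42.0 and limma 3.58.1 (voom) were alternatives. All 10 members, up to 4 genes per list with the smallest p and the 5 genes most alike were named; Vegfa, Prox1 and marker genes named outside that rule were chosen after their values were seen. Members and lists were chosen with earlier results of these data known. Of the listed symbols, 3 had no match. The targeted gene is not reported here.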

Additional observations from a re-analysis of the deposited data

Results flagged for a closer look

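In 3 of the 68 sets of 4 libraries examined (members, ratios and summed lists), 1 library lay far from its group; about 3.4 such sets arise by chance. For Tie1 it was knockout library 3, with a log2 CPM of 6.66 against 6.42, 6.46 and 6.46 in its group. For Emcn it was wild-type library 2, with 4.72 against 5.07, 5.07 and 5.12. For Esam it was knockout library 2, which also held epithelial genes, with 6.72 against 7.01, 7.03 and 7.06.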

How the results depend on the processing

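No member passed in any of the 16 other settings, and the smallest adjusted p over members and settings was 0.892. Over all genes, 2 were called in the main comparison, 17 with DESeq2, and 0 with limma voom, total counts, no low-count filter, the replicate block, without any single library (0 to 0) or without wild-type library 3 and knockout library 2; the cause was not tested. Of 160 member values, 137 kept their direction and 23 turned, in 8 of the 10 members; Vwf and Flt1 kept theirs, although Flt1, at -0.25, was at -0.011 without wild-type library 1. Leaving out single libraries gave ranges of -0.31 to 0.02 for Cdh5, -0.39 to 0.045 for Kdr, -0.063 to 0.17 for Tie1, -0.097 to 0.059 for Emcn, -0.074 to 0.089 for Esam, -0.049 to 0.19 for Cldn5, -0.69 to -0.31 for Vwf, -0.55 to -0.011 for Flt1, -0.20 to -0.0034 for Pecam1, -0.31 to -0.017 for Tek, and, for log2 ratios, -0.64 to -0.30 for Vwf to Pecam1, -0.28 to -0.091 for Tek to Tie1, -0.20 to 0.24 for Kdr to Flt1, 0.0095 to 0.14 for Emcn to Pecam1 and 0.061 to 0.26 for Cldn5 to Cdh5. Without wild-type library 3 and knockout library 2, Pecam1 was at 0.00042, Cdh5 at 0.092, Tek at 0.048, Tie1 at 0.18 and Esam at 0.16, and the ratios of Kdr to Flt1, Emcn to Pecam1 and Cldn5 to Cdh5 at -0.33, -0.021 and -0.016. With total counts, Emcn was at 0.016 and Esam at 0.024. Esam was at 0.0041 with limma voom and at 0.0032 with the replicate block. Same-numbered libraries of the genotypes, which that block pairs, correlated at -0.33 to 0.11 over 12909 genes. The block lowered the SE of most members, as from 0.24 to 0.13 for Cdh5. It raised that of Emcn and of Vwf, from 0.26 to 0.31 for Vwf. What the shared numbers stand for was not tested. Vwf had an unadjusted p of 0.0234 in edgeR without knockout library 1. With 4 mice a group, the intervals of Flt1 and Vwf still reach a change to 0.478-fold.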
